A study of Mus musculus with 12 samples.

Results

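The nucleolar ribosome assembly genes described here are those whose symbol is Nop, Nol, Utp or Rrp followed by a digit, together with 12 genes named outright (*Nolc1*, *Npm1*, *Ncl*, *Fbl*, *Dkc1*, *Bop1*, *Pes1*, *Wdr12*, *Wdr43*, *Wdr75*, *Ftsj3* and *Ebna1bp2*). The rule found 48 genes among the 41444 genes of the expression table. Of these, 45 had a mean of at least 3 on the regularized log2 (rlog) scale and were tested, among 11536 genes tested in all. The members were taken by symbol and by this mean over all 6 samples, but this choice was made with earlier results of these data known.

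The cells were bone marrow pre-B cells of *Ctnnb1* fl/fl mice that had been grown with IL7, transformed with a *BCR-ABL1* retrovirus and then kept without IL7. They serve as a model of B cell acute lymphoblastic leukemia (B-ALL) that depends on an introduced oncogene. Every sample compared here carried the ERT2 vector, which contains no Cre recombinase, so that the floxed β-catenin gene was left intact. Control samples (n = 3) received 1 µM 4-OHT, the tamoxifen metabolite that activates Cre-ERT2 fusions, for 2 days. Treated samples (n = 3) received the same 4-OHT and, in addition, 40 nM LY2090314 for 1 day by the labels, where the study's text gives a shorter exposure. LY2090314 is a small-molecule inhibitor of GSK3β, the kinase that marks β-catenin for degradation. The series holds 12 samples in 4 groups, and its Cre-ERT2 samples are not analysed here. The question of the comparison was how transcript levels of ribosome assembly factors differed when GSK3β was inhibited in cells that retain β-catenin.

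Ribosomes are assembled in the nucleolus, where RNA polymerase I transcribes the long precursor of the ribosomal RNAs. Small nucleolar ribonucleoproteins (snoRNPs) modify this precursor, the small subunit processome folds and cuts its first part, and further factors, including the PeBoW complex, mature the large subunit. Many of these factors are known as transcriptional targets of MYC, and their levels are known to be high in growing lymphoid cells.

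The values are rlog values, log2 read counts scaled for library size in which genes with few reads are drawn towards their mean. A difference of 1 is therefore a change by a factor of about 2 and is understated for low genes. Read counts were not used here and sequencing depth is unknown. Levels of different genes are not comparable, because the scale is not corrected for transcript length. In bulk samples, fewer expressing cells and less RNA per cell cannot be told apart. The SD of the difference between 2 libraries over all genes was 0.185 to 0.239 within controls, 0.186 to 0.253 within treated samples and at least 0.581 between the groups. Treated samples 1 and 2 carry the same leading library number with the suffixes A and B, and were the closest treated pair. The study's legend describes its replicates as mice, and what the shared number stands for is not given in the sources used here. All 15 pre-B cell markers were measured with a mean of at least 3, and all 6 T cell markers were at or below 0. The pre-B markers were themselves lower in 12 and higher in 2 cases, with a summed log2 level of 17.04 to 17.09 in controls and 16.32 to 16.45 with LY2090314. Of 7 myeloid markers, *Mpo*, *Elane* and *Adgre1* were at or below 0 and 2 were higher with treatment, and the summed log2 level was 6.11 to 6.29 in controls and 7.41 to 7.47 with LY2090314. Of 5 erythroid markers 3 were at or below 0 and the summed log2 level was 4.42 to 4.46 in controls and 4.13 to 4.16 with treatment, while 4 of 5 stromal markers were at or below 0. The part of these marker changes in the results below was not tested.

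Most nucleolar assembly transcripts were lower in cells treated with LY2090314, and none of them passed the threshold in the other direction. At an adjusted p under 0.05 (limma with Benjamini-Hochberg adjustment over all genes), 33 of the 45 members (73.3%) were lower in treated cells, where 25.3% of all genes tested were lower. No member was higher, where 24.8% of all genes were. In either direction, 50.1% of all genes passed this adjusted threshold. Averaging the treated samples with the same library number gave 30 lower members and 0 higher. At an unadjusted p under 0.05 (limma) the member counts were 36 lower and 0 higher. The share of all genes at that unadjusted limit is not given here. The median difference of the members was −0.37 on the log2 scale, or 77.1% of the control level, against 0.01 over all genes. Individual differences ran from −0.93 for *Ncl* to 0.17 for *Nop53*, and 41 of 45 were below 0.

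The changes were moderate in size and similar from sample to sample. Falls of at least 0.5 on the log2 scale were found in 14 of 45 members (31.1%), where 9.37% of all genes passed the same limit, and 0 members fell by 1 or more. A further 16 of the 33 falls were between 0.25 and 0.5, and *Rrp1*, the smallest of them, fell by 0.17. In 35 members (77.8%) every treated sample was below every control, compared with 29.5% of all genes, and in 0 members was every treated sample above every control, compared with 29.1%. The 2 members of those 35 that did not pass the threshold were *Nol8* and *Utp3*.

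The spread within groups was small beside these falls. The median SD over members was 0.059 among controls and 0.079 among treated samples. The median deviation of the members from the control mean was −0.01, −0.02 and 0.04 in the 3 controls and −0.38, −0.38 and −0.36 in the 3 treated samples. The median over all genes stayed between −0.01 and 0.01 in all 6, which scaling for library size tends to produce. A change shared by all transcripts could therefore not be seen on this scale. Treated sample 3 was the highest of the treated samples in 20 of the 33 lower members. This was also the case for 52.7% of all genes that were lower.

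**Figure D1:**
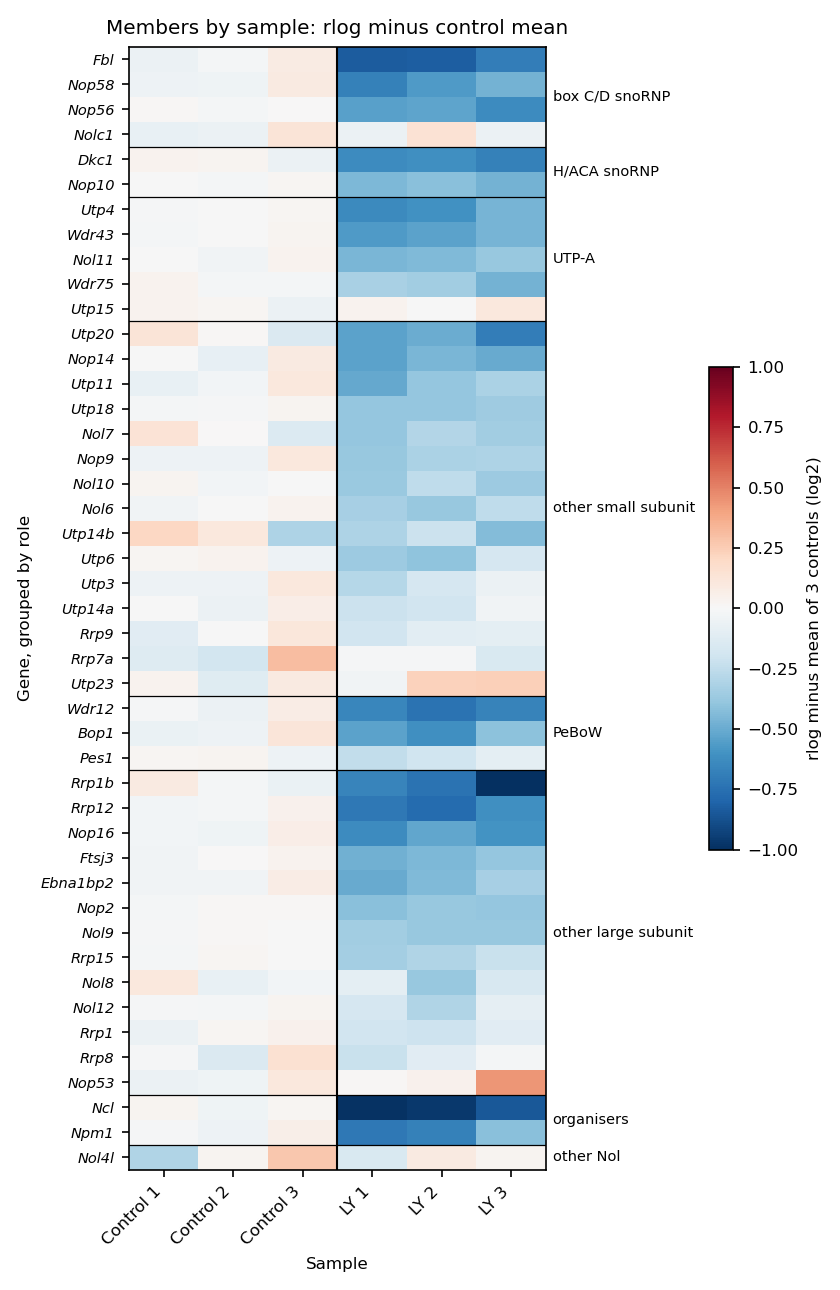
Heat map of the 45 members (rows, grouped by role) in 3 control and 3 LY2090314-treated samples (columns). Color gives the rlog value minus the mean of the 3 controls on a log2 scale cut off at −1 and 1, and the 3 treated columns are blue for most rows, with *Nolc1*, *Utp15*, *Utp23*, *Nop53* and *Nol4l* among the exceptions.

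By symbol, each family held members that fell and members that did not pass. Of the Nop genes 7 of 8 tested fell (median −0.47), of the Nol genes 6 of 8 (median −0.33), of the Utp genes 5 of 10 (median −0.32) and of the Rrp genes 4 of 7 (median −0.17). Among the 12 genes named outright, 11 fell, with a median of −0.52. Of all genes tested 25.3% were lower, and the families were not compared with each other by a test.

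Promoter sequence is the feature shared by some members that the choice by symbol did not use, and the windows are shown here because E-box letters are those that MYC with its partner MAX is known to bind. RefSeq promoter windows of GRCm38.p6, reaching from 250 bases before to 50 bases after an annotated start, were given for 37 of the 48 members, 36 of them tested. The palindrome CACGTG (the E-box, which reads the same on both strands) occurred in the windows of 9 of these 36 genes (25.0%) and of 12.2% of 8681 genes tested with a window. The 9 matches are given 5′ to 3′ on the strand of the gene with at most 12 bases on each side and the E-box in capitals. The position is that of the first E-box base relative to the start.
*Utp4* (position 16, chr8:106893643-106893672, plus strand): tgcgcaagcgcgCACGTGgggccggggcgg
*Wdr43* (position 18, chr17:71616220-71616249, plus strand): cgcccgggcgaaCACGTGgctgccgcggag
*Nol11* (position −43, chr11:107189407-107189436, minus strand): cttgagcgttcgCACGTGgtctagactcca
*Utp20* (position 38, chr10:88826765-88826789, minus strand): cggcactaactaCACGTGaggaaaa
*Utp18* (position −20, chr11:93885769-93885798, minus strand): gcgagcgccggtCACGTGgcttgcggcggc
*Utp14b* (position −63, chr1:78658365-78658394, plus strand): cgcgggcgcgggCACGTGggtggggtcgtc
*Rrp7a* (position −208, chr15:83122992-83123021, minus strand): gtgcctgtgcacCACGTGtcctggaactgg
*Pes1* (position 3, chr11:3963965-3963994, plus strand): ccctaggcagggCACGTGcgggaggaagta
*Nop2* (position −60, chr6:125131811-125131840, plus strand): gtgtccctggatCACGTGtgttccggtgcc

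Of the 9 members with an E-box, 7 fell (median −0.39), and of the 27 members with a window but no E-box, 19 fell (median −0.34). The 2 with an E-box that did not pass the threshold were *Utp14b* and *Rrp7a*. Over all genes with a window, 28.5% of those with an E-box and 25.7% of those without were lower. The letters CTTTGAT, the core of the TCF/LEF motif through which β-catenin complexes are known to bind DNA, were searched on both strands and occurred in 2 of 36 members (5.56%, *Nop9* and *Utp14a*) and in 2.95% of all genes with a window. A match is a description of these letters, and binding was not measured.

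The nucleolar organisers include *Ncl*, the member with the largest fall. *Ncl* (ENSMUSG00000026234, GRCm38 chromosome 1, 86344719 to 86359400, minus strand) encodes nucleolin, an RNA-binding protein that is among the most abundant proteins of the nucleolus and takes part in the transcription and processing of ribosomal RNA. Its rlog values were 16.13, 16.06 and 16.12 in controls and 15.12, 15.14 and 15.26 with LY2090314. The groups did not overlap, and the samples of each group were close together. *Ncl* fell by 0.93 on the log2 scale (SE 0.079, adjusted p = 4.7e-05 by limma with Benjamini-Hochberg adjustment), to 52.4% of the control level. The 120 bases before its RefSeq start (chr1:86359456-86359575, minus strand, 71.7% G or C) are given to show the promoter of the member with the largest fall, and neither they nor the rest of its window held CACGTG.
*Ncl*: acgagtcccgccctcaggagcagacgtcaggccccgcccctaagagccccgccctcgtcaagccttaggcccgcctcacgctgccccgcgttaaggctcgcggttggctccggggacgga

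*Npm1* encodes nucleophosmin, a nucleolar chaperone for histones and ribosomal proteins. Its values were 15.32, 15.29 and 15.39 in controls and 14.62, 14.65 and 14.91 in treated samples. Treated sample 3 was the highest of the treated samples, but all were below the lowest control. *Npm1* fell by 0.60 (SE 0.094, adjusted p = 0.0011 by limma with Benjamini-Hochberg adjustment). A pseudogene transcript with 97.4% identity to *Npm1* over 420 bases, *Gm14681*, was also measured, with a mean rlog of 5.81, so that reads could have been split between the 2.

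Of the 4 core proteins of the box C/D snoRNPs, the particles that guide methylation of the ribose in ribosomal RNA, 3 are members and fell. This is to be read beside the 25.3% of all genes tested that were lower. *Snu13*, the core protein that binds the guide RNA and is not named by the rule, differed by −0.17 and did not pass the threshold (adjusted p = 0.055 by limma). *Fbl* (chromosome 7, 28169710 to 28179269, plus strand) encodes fibrillarin, the methyltransferase of these particles. It stood at 12.27, 12.31 and 12.41 in controls and at 11.50, 11.50 and 11.64 with treatment. *Fbl* fell by 0.78 (SE 0.060, adjusted p = 2.7e-05 by limma with Benjamini-Hochberg adjustment), and only *Ncl* and *Rrp1b* fell by more among the members.

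*Nop56* and *Nop58* encode the scaffold proteins that hold fibrillarin on the guide RNA. *Nop56* was at 12.41, 12.38 and 12.40 in controls and at 11.85, 11.87 and 11.77 with LY2090314, and fell by 0.57 (adjusted p = 3.9e-05 by limma). *Nop58* was at 12.49, 12.49 and 12.63 in controls and at 11.86, 11.97 and 12.06 with LY2090314, and fell by 0.57 (adjusted p = 0.00026 by limma). *Nop56* minus *Nop58* was −0.08, −0.12 and −0.23 in controls and −0.004, −0.10 and −0.29 with LY2090314. Its mean changed by 0.01 between groups, but its values were spread within each group. *Fbl* minus the mean of both was −0.19, −0.12 and −0.11 in controls and −0.36, −0.42 and −0.28 with treatment. The mean of this second ratio went from −0.14 to −0.35. These ratios were chosen after the values were seen and were not tested.

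*Nolc1*, which encodes a chaperone of snoRNPs, did not pass the threshold. Its values were 3.07, 3.08 and 3.27 in controls and 3.08, 3.29 and 3.09 with LY2090314, the groups overlapped, and the difference was 0.01 (95% interval −0.21 to 0.23, adjusted p = 0.93 by limma). With an overall mean of 3.15 it was the lowest member tested, just inside the limit of 3, where rlog values are drawn strongly towards the mean. Whether this row holds all reads of *Nolc1* could not be told from the table, so that its difference is uncertain. *Rrp36* lay outside that limit, at 1.57 in controls and 1.58 with treatment.

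Both members of the H/ACA snoRNPs, the particles that convert uridine to pseudouridine, fell, where 25.3% of all genes tested were lower. *Dkc1* (chromosome X, 75095854 to 75109777, plus strand) encodes dyskerin, the pseudouridine synthase, which is also part of telomerase. Its values were 12.45, 12.44 and 12.36 in controls and 11.79, 11.81 and 11.74 with LY2090314. *Dkc1* fell by 0.64 (SE 0.048, adjusted p = 2.3e-05 by limma with Benjamini-Hochberg adjustment), and the 3 treated values were close together. *Nop10*, a small core protein of the same particle, went from 9.88, 9.87 and 9.90 to 9.43, 9.47 and 9.42, and fell by 0.44 (adjusted p = 0.00018 by limma). The other core proteins, which are not named by the rule, were also lower. *Gar1* fell by 0.81 (adjusted p = 2.6e-05 by limma) and *Nhp2* by 0.80 (adjusted p = 5.6e-05 by limma), so that all 4 core protein transcripts of the H/ACA particle fell.

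**Figure D2:**
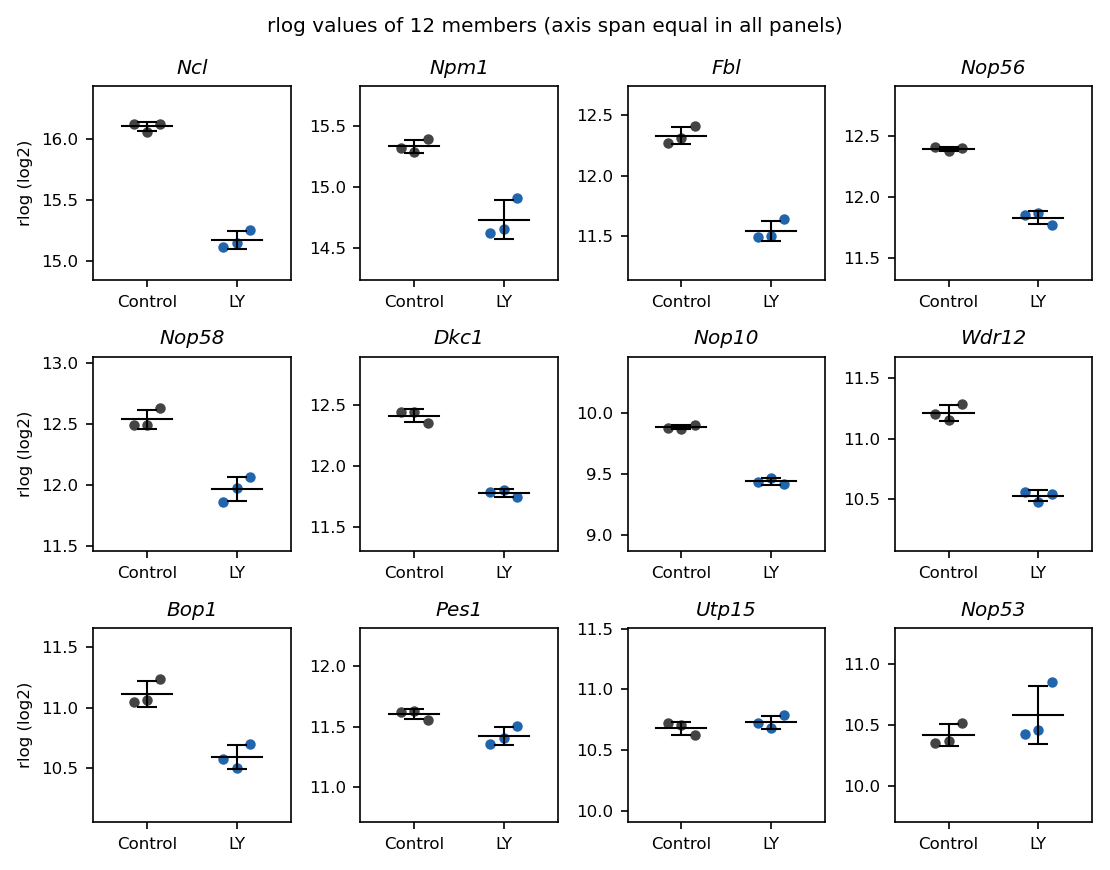
rlog values (log2, y axis) of 12 members in control and LY2090314-treated samples, with each point a sample, the long line the mean and the bars 1 SD (n = 3 per group). The y axes start at different values but span the same range; *Ncl*, *Fbl* and *Dkc1* show no overlap between groups, while *Utp15* and *Nop53* overlap.

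The UTP-A subcomplex binds the ribosomal RNA precursor first and nucleates the small subunit processome, and is known to be needed for transcription of the precursor as well. Of the 5 UTP-A genes that the rule names, 4 fell, where 25.3% of all genes tested were lower. *Utp4* was at 10.65, 10.66 and 10.68 in controls and at 10.03, 10.06 and 10.20 with LY2090314, and fell by 0.57 (adjusted p = 0.00012 by limma). *Wdr43* was at 12.01, 12.03 and 12.06 in controls and at 11.46, 11.49 and 11.57 with LY2090314, and fell by 0.53 (adjusted p = 5.9e-05 by limma). Both hold the E-box shown above within the first bases after their start. *Nol11* fell by 0.43, from 10.92, 10.88 and 10.96 to 10.46, 10.47 and 10.54 (adjusted p = 0.0002 by limma). *Wdr75* fell by 0.38, from 10.80, 10.75 and 10.75 to 10.45, 10.42 and 10.30 (adjusted p = 0.00078 by limma). In all 4 the groups did not overlap.

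The fifth, *Utp15*, did not pass the threshold. It was at 10.72, 10.70 and 10.62 in controls and at 10.72, 10.68 and 10.79 in treated samples, so that the groups overlapped. The difference was 0.05 with a 95% interval of −0.07 to 0.17 (adjusted p = 0.48 by limma with Benjamini-Hochberg adjustment). *Utp15* minus the mean of the 4 other UTP-A members was −0.38, −0.38 and −0.49 in controls and 0.12, 0.07 and 0.14 with treatment. Any UTP-A subunit that the rule does not name was left out of this ratio. This ratio was chosen after the values were seen and has no test. The 120 bases before the RefSeq start of *Utp15* (chr13:98262993-98263112, minus strand, 66.7% G or C) are printed as those of the UTP-A member that did not pass the threshold, and its window held no CACGTG.
*Utp15*: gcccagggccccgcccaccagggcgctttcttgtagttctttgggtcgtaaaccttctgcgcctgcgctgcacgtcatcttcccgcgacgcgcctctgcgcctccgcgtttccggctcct

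**Figure D3:**
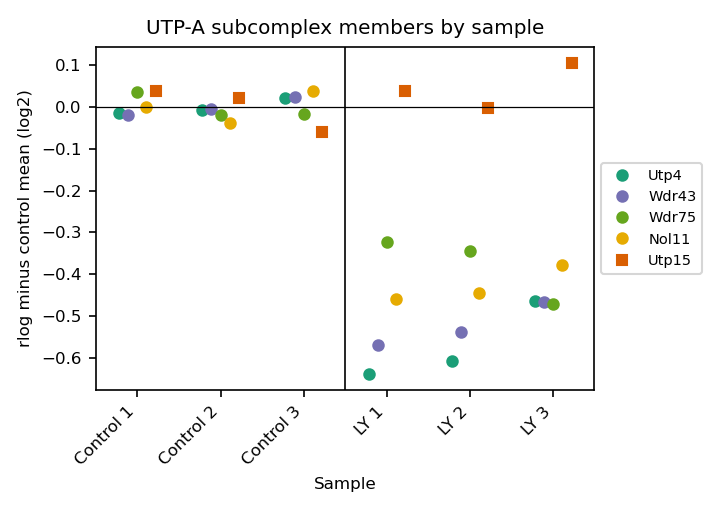
rlog value minus the control mean (log2, y axis) of the 5 UTP-A members in each of 3 control and 3 treated samples (x axis), with 1 point per gene and sample. In the treated samples *Utp4*, *Wdr43*, *Wdr75* and *Nol11* lie below −0.3, while *Utp15* (squares) stays near 0.

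Of the 15 other small subunit members tested, 9 fell and 6 did not pass the threshold, where 25.3% of all genes tested were lower. *Utp20*, a very large scaffold protein of the processome, changed most and fell by 0.58 (adjusted p = 0.00073 by limma). *Nop14* fell by 0.50 (adjusted p = 0.00026 by limma) and *Utp11* fell by 0.40 (adjusted p = 0.0028 by limma). *Utp18* and *Utp6*, subunits of the UTP-B subcomplex, fell by 0.37 and 0.31. *Nol7*, *Nop9*, *Nol10* and *Nol6*, all factors of early small subunit particles, fell by 0.32 to 0.34. The median over the 15 was −0.32.

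The 6 small subunit members that did not pass were *Utp14b*, *Utp3*, *Utp14a*, *Rrp9*, *Rrp7a* and *Utp23*. *Utp23* had the highest difference, 0.15 (95% interval −0.08 to 0.37). *Utp14a*, which activates a helicase that removes the U3 snoRNA, differed by −0.15 (95% interval −0.30 to 0.00), *Utp3* by −0.17 (95% interval −0.34 to −0.00) and *Rrp9*, a protein of the U3 snoRNP, by −0.13 (95% interval −0.30 to 0.03). Without treated sample 3, *Utp3* (−0.23, adjusted p = 0.024 by limma) and *Utp14a* (−0.20, adjusted p = 0.017 by limma) passed the threshold.

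Control sample 3 decided the values of another pair. *Rrp7a* was at 10.68, 10.63 and 11.12 in controls and at 10.80, 10.80 and 10.66 with treatment, a difference of −0.06 (95% interval −0.35 to 0.22) that turned to 0.09 without control 3. *Utp14b*, a copy of *Utp14a*, was at 9.87, 9.77 and 9.36 in controls and at 9.36, 9.45 and 9.23 with treatment. Its difference was −0.32 (adjusted p = 0.076 by limma), and without control 3 it was −0.47 (adjusted p = 0.0039 by limma). *Utp14b* shares 244 exonic bases on the same strand with *Acsl3*, which fell by 0.53 (adjusted p = 0.00032 by limma), so that its reads are uncertain.

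The PeBoW complex is needed for processing of the large subunit precursor and for cell proliferation. All 3 of its subunits fell past the threshold, but to different degrees, where 25.3% of all genes tested were lower. *Wdr12* was at 11.20, 11.16 and 11.29 in controls and at 10.57, 10.48 and 10.55 with LY2090314, and fell by 0.69 (SE 0.052, adjusted p = 2.6e-05 by limma). *Bop1* was at 11.05, 11.06 and 11.24 in controls and at 10.58, 10.51 and 10.70 with treatment, and fell by 0.52 (SE 0.073, adjusted p = 0.00069 by limma). *Pes1* encodes pescadillo, which binds the *Bop1* protein directly. It was at 11.62, 11.63 and 11.55 in controls and at 11.36, 11.40 and 11.50 with LY2090314. The groups of *Pes1* did not overlap, but it fell by 0.18 (SE 0.053, adjusted p = 0.024 by limma). Its adjusted p by limma was 0.073 without control 1, 0.089 without control 2, 0.087 without treated sample 1 and 0.078 without treated sample 2. *Pes1* minus the mean of *Bop1* and *Wdr12* was 0.49, 0.52 and 0.29 in controls and 0.78, 0.91 and 0.88 with treatment, a ratio chosen after the values were seen and not tested.

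On the opposite strand, exons of *Bop1* overlap those of *Mroh1* by 50 bases and exons of *Dkc1* overlap those of *Mpp1* by 45 bases. *Mroh1* rose by 3.03 and *Mpp1* by 1.17 (adjusted p = 7.8e-07 and 3.2e-06 by limma). The library was stranded. Both neighbours moved opposite to the member, and any part of these overlaps in the falls was not tested. Stretches of *Wdr12* over 200 bases long were at least 95% identical to transcripts of *Cxcr2* (mean rlog 4.43) and *Ppip5k1* (mean rlog 8.66), which the authors' quantification could share with it.

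Of the 13 other large subunit members tested, 10 fell, where 25.3% of all genes tested were lower. The median over the 13 was −0.37. *Rrp1b* (chromosome 17, 32036100 to 32062865, plus strand), a nucleolar protein related to yeast Rrp1, was at 10.57, 10.46 and 10.42 in controls and at 9.83, 9.75 and 9.48 with LY2090314. *Rrp1b* fell by 0.80 (SE 0.093, adjusted p = 0.00025 by limma with Benjamini-Hochberg adjustment), and only *Ncl* fell by more. *Rrp12* (chromosome 19, 41862851 to 41896173, minus strand), which acts in maturation and export of pre-ribosomes, was at 10.79, 10.80 and 10.86 in controls and at 10.10, 10.05 and 10.20 with treatment, and fell by 0.70 (SE 0.056, adjusted p = 3.3e-05 by limma). *Rrp1*, the paralog of *Rrp1b*, fell by 0.17, the smallest fall past the threshold. The adjusted p of *Rrp1* by limma was 0.089 without control 2, 0.066 without control 3, 0.08 without treated sample 1 and 0.09 without treated sample 2. *Rrp1b* minus *Rrp1* went from a mean of −1.68 in controls to −2.31 with treatment, a change that was not tested.

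Other large subunit factors fell by 0.58 or less. *Nop16* fell by 0.58. *Ftsj3*, a ribosomal RNA methyltransferase, was at 11.73, 11.77 and 11.80 in controls and at 11.29, 11.32 and 11.38 with LY2090314, and fell by 0.44 (adjusted p = 0.00016 by limma). *Ebna1bp2*, an early large subunit factor, was at 10.46, 10.46 and 10.56 in controls and at 9.99, 10.05 and 10.16 with treatment, and fell by 0.43 (adjusted p = 0.00076 by limma). Neither gene showed any overlap between groups. *Nop2*, which methylates a cytosine of the large ribosomal RNA, fell by 0.39, *Nol9*, a polynucleotide kinase that acts on the internal spacer, by 0.37, and *Rrp15* by 0.29. *Nol12*, an RNA-binding protein of the nucleolus, fell by 0.19, near the threshold (adjusted p = 0.048 by limma). It did not pass without any 1 of the 3 controls or without treated sample 1 or 2 (adjusted p from 0.095 to 0.16 by limma).

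*Nop53*, *Rrp8* and *Nol8* did not pass the threshold. *Nop53*, which links the exosome to large subunit precursors, had the highest difference of all members. It was at 10.36, 10.37 and 10.52 in controls and at 10.43, 10.46 and 10.86 with LY2090314. The groups overlapped, and the difference of 0.17 had a 95% interval of −0.10 to 0.43 (adjusted p = 0.25 by limma). *Rrp8*, a methyltransferase of the large ribosomal RNA, differed by −0.12 (95% interval −0.32 to 0.08), and *Nol8* by −0.21 (95% interval −0.42 to −0.01, adjusted p = 0.082 by limma).

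The symbol rule also takes in 3 genes with no known role in ribosome assembly. *Nol4l* differed by −0.01 (95% interval −0.36 to 0.33). *Nol3*, an inhibitor of apoptosis, was at a mean of −1.13 in controls and −1.11 with treatment, and *Nol4* at −1.96 and −1.95. Both lay below the limit on the mean and were not tested.

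**Figure D4:**
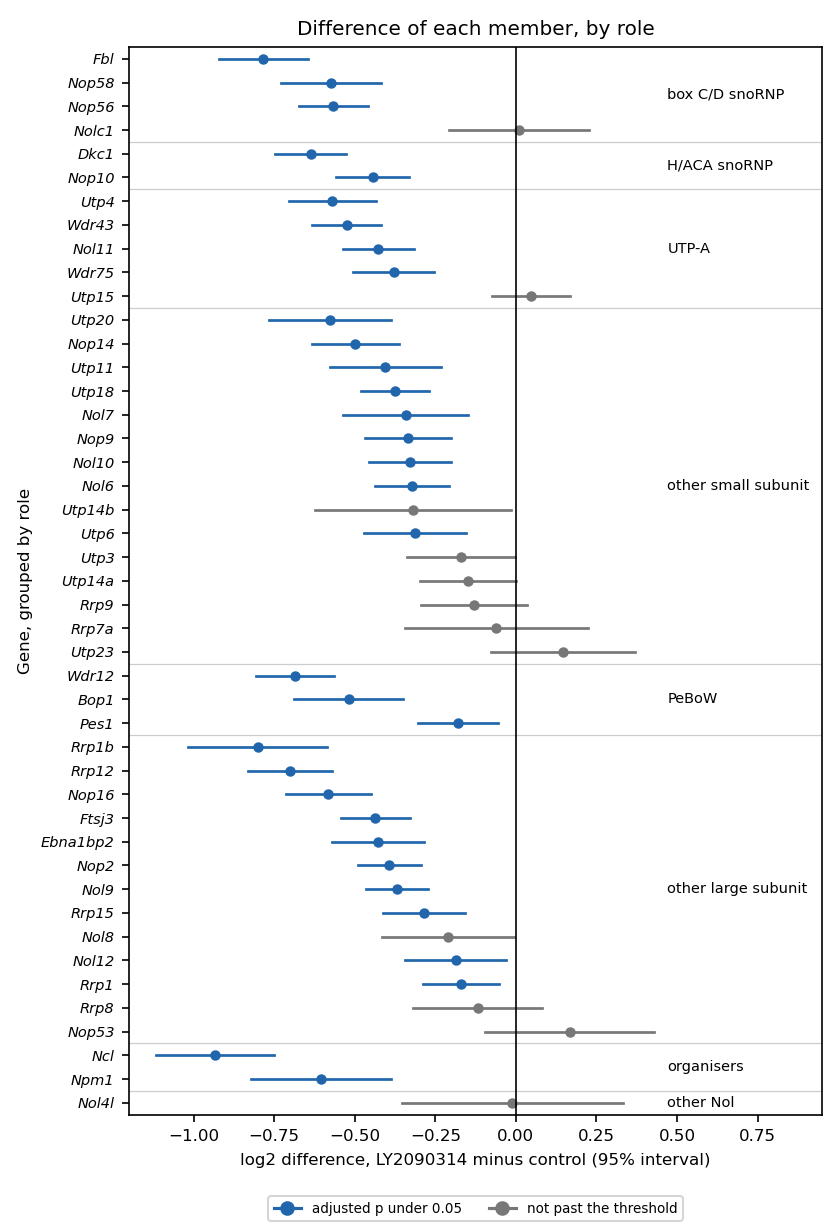
log2 difference (LY2090314 minus control, x axis) of each of the 45 members with its 95% interval from limma, grouped by role (n = 3 per group). Blue marks the 33 members at an adjusted p under 0.05, all of them below 0, and grey the 12 others.

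Some members are hosts of snoRNA genes, which lie in introns and are released when the intron is removed. By the GENCODE annotation, 6 of the 45 members (13.3%) contain a snoRNA gene on the same strand, compared with 1.87% of protein-coding genes tested. *Nop56* contains 5, *Nop58* 4, *Ncl* 3, *Wdr43* 3, and *Dkc1* and *Nop53* 1 each. All but *Nop53* fell, and the median of the 6 was −0.57, against −0.34 in the 39 other members. Over all protein-coding genes tested, 26.3% of 198 hosts and 26.8% of 10398 others were lower. The snoRNAs themselves were not assessed, because the library was made from polyadenylated RNA.

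Assembly factors that the symbol rule leaves out moved in the same direction. Of 28 other small subunit factors tested, 21 were lower and 0 higher (median −0.36), with the largest falls in *Wdr46* and *Tbl3*, which encode WD-repeat proteins of the processome. *Wdr46* fell by 0.78 (adjusted p = 1.6e-05 by limma) and *Tbl3* fell by 0.76 (adjusted p = 5.4e-05 by limma). *Imp3*, which joins the U3 snoRNA to the precursor, had the highest difference, 0.14 (adjusted p = 0.12 by limma). Of 35 other large subunit factors, 25 were lower and 0 higher (median −0.34). *Noc2l* fell by 0.88 (adjusted p = 1.1e-05 by limma) and *Lyar*, a nucleolar zinc finger protein, by 0.82 (adjusted p = 5e-06 by limma), and the highest difference was that of *Gnl3l*, 0.07 (adjusted p = 0.37 by limma).

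Of 11 other snoRNP genes, 8 were lower and 0 higher (median −0.42). The largest falls were those of *Gar1* and *Nhp2*, given above, and *Shq1*, an assembly factor of H/ACA particles, had the highest difference, 0.04. At an unadjusted p under 0.05, 0 genes of these 3 lists were higher by limma, and the share of all genes at that limit is not given here. The counts at the adjusted threshold are to be read beside the 25.3% of all genes that were lower.

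The RNA exosome, which trims the ends of ribosomal RNA precursors, and the noncoding snoRNA host transcripts were listed as other RNAs of the same pathway. Of 13 exosome genes tested, 11 were lower and 1 higher (median −0.34), where 25.3% of all genes were lower and 24.8% higher. *Exosc5*, a subunit of the exosome ring, fell by 1.15 (adjusted p = 3e-05 by limma), more than any of the members, and *Exosc2* fell by 0.54 (adjusted p = 0.00019 by limma). *Mphosph6*, which binds the nuclear exosome, rose by 0.31 (adjusted p = 0.0064 by limma).

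Of the 9 noncoding snoRNA host transcripts tested, 0 were lower at an adjusted p under 0.05 or at an unadjusted p under 0.05 (limma), 2 were higher and 7 did not pass. The median was 0.22. The counts at the adjusted threshold are to be read beside the 25.3% of all genes that were lower and the 24.8% that were higher. For the unadjusted limit, the share of all genes is not given here. The list was not compared with the protein factors by a test. *Gas5* rose by 0.49 (10.71, 10.64 and 10.72 in controls, 11.06, 11.15 and 11.32 with treatment, adjusted p = 0.00082 by limma) and *Snhg12* by 0.57 (adjusted p = 0.0026 by limma). *Snhg5* and *Snhg3* differed by −0.30 and −0.23 and did not pass the threshold. Over the 5 lists together, 65 of 96 genes were lower and 3 higher, to be read beside the same shares of all genes.

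**Figure D5:**
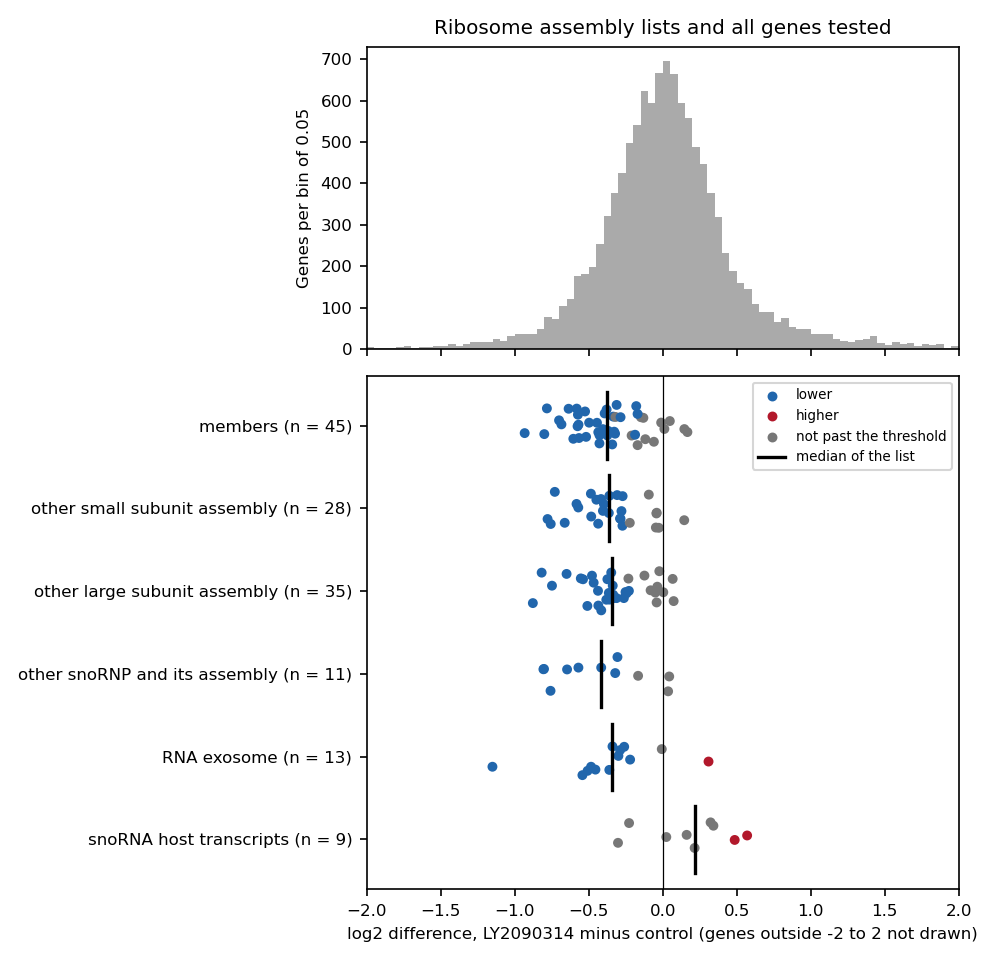
Top, histogram of the log2 difference (LY2090314 minus control) of the 11536 genes tested, in bins of 0.05. Bottom, the difference of each gene in the members and 5 other lists on the same x axis, with the median of each list as a bar; the medians lie between −0.42 and −0.34 except for the snoRNA host transcripts (0.22).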

How the data were processed

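The authors prepared stranded RNA-seq libraries of polyadenylated RNA, quantified reads with Salmon and aligned them with STAR to GRCm38, and used FastQC 0.11.9, SAMtools 1.7 and Picard 2.23.8 per the labels. They deposited log2 values for 41444 genes in 1 table whose name gives them as rlog (DESeq2 1.30.1 per the labels). Which samples entered that transformation is not stated. Of the 12 columns, 6 could be assigned to a group by name, and the other 6 were not used, since each carries both Cre and LY in its name. Sample numbers only name samples, for which the study's legend names mice as replicates, and p-values measure the spread between these samples.

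Genes with a mean of at least 3 were tested with limma 3.58.1 (R 4.3.3, lmFit, eBayes with trend), and p-values were adjusted by Benjamini-Hochberg over 11536 genes, with a threshold of 0.05 and 95% intervals. An exact two-sided permutation test of 3 against 3 samples gave p = 0.10, the smallest it allows, for every tested member without overlap. The calculation was also run on simulated data with independent samples and far fewer changed genes than were called here. That run cannot speak to samples that share a source or to changes this widespread. Symbols were matched for 41157 identifiers. Positions, overlaps and snoRNA genes come from GENCODE vM21 (GRCm38), similar transcripts from BLAST 2.17.0 (at least 95% identity over at least 200 bases) and promoters from RefSeq (GRCm38.p6), where a gene with several starts counts once. *Utp23*, *Npm1*, *Bop1*, *Nol6*, *Rrp12*, *Utp6*, *Nol3*, *Fbl*, *Nol4*, *Utp11* and *Nop53* had no promoter entry.

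The members, roles, lists and tests were chosen with earlier results of these data known. Sample values were to be given for the 12 members named outright and the 5 largest falls. Also named were members that did not pass, the extremes of each role and, in each other list, the 2 largest falls and the largest rise. Other members, *Gas5* and *Snu13* were named after their values were seen. The alternatives were no limit on the mean, a limit of 5, no trend, median centring, quantile normalization, leaving out each sample, a threshold of 0.01 and a log2 difference of at least 1.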

Additional observations from a re-analysis of the deposited data

How the results depend on the processing

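Of the 33 lower members, 29 passed the threshold in all 13 settings other than the limit on size, and 0 changed sign in any of them. With a log2 difference of at least 1 required, 693 genes passed, of which 0 were lower members, 1 was lower in the other lists (*Exosc5*) and 0 were higher there. Median centring moved the median of the members to −0.40. Leaving out each sample in turn gave between 30 and 35 lower members, between 4734 and 6228 genes past the threshold and between 3 and 5 higher genes in the other lists, the 5 without treated sample 3. Quantile normalization moved the median of all genes from 0.01 to −0.04 and the share of calls that were higher from 49.5% to 43.4%. *Nol12*, *Pes1*, *Rrp1* and, at a threshold of 0.01, *Nol7* were the calls lost in some settings. After seeing the data, treated samples 1 and 2 were also averaged into 1 sample, which left 30 lower members and 4936 genes.

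Signs turned for 3 members near 0, and the cause was not tested. *Nolc1* was −0.016 with median centring, −0.084 with quantile normalization, −0.0058 with the shared library number as 1 sample and between −0.056 and 0.077 with a sample left out. With a sample left out, *Nol4l* was between −0.16 and 0.12 and *Rrp7a* between −0.15 and 0.094, the last without control 3.

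No paired analysis was possible because the treated columns carry other numbers than the titles, so that they share no replicate numbers with the controls. Without counts, the depth behind a low gene such as *Nolc1* is unknown.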
